A study of Arabidopsis thaliana with 10 samples.

Results

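Of 22746 probe sets measured in Arabidopsis thaliana seedlings, 23 were higher in the transgenic line ΔC26 alone. They were chosen from the measured values themselves. On the scale log2(intensity + 16), where 16 is a constant added to damp noise in dim probe sets, the mean of the ΔC26 arrays had to lie at least 0.8 above the higher of the 2 control means. The means of ΔC27 and of FL3 each had to lie less than 0.3 above the mean of the controls. Array control probe sets and 4 genes (AT5G62360, MSRB6, COR15B and AT5G48570) were left out by name, and 3 of those 4 otherwise met the thresholds. Because every array entered this choice, differences of the 23 between ΔC26 and the other lines are described below and carry no test.

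The series held 10 Affymetrix arrays of whole seedlings aged 12 days and grown without stress, 2 for each of 5 lines. ΔC26 and ΔC27 were separate transgenic lines carrying TaSIN without its transmembrane motif, FL3 carried TaSIN of full length, VC carried the vector with no insert, and Col-0 was the untransformed wild type. The transgenes were expressed constitutively, from a promoter that the labels do not name, so all 3 TaSIN lines and VC share a transformation history that Col-0 lacks. ΔC26 and ΔC27 shared this form of TaSIN, and the rule asked for a rise in ΔC26 without one in ΔC27. ΔC26 was 1 transgenic line, so the site where its transgene inserted, the level of the transgene and other traits of that line cannot be told apart. The submitters describe the arrays of a line as independent biological replicates. In whole seedlings, fewer cells of a type and less RNA per cell cannot be told apart.

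Heat shock proteins are molecular chaperones: small ones of the HSP20 type bind unfolding proteins, and HSP70 and HSP90 refold or mature them with the help of co-chaperones. In plants many of them are nearly silent in unstressed tissue and are transcribed strongly under heat and other conditions that unfold proteins. Seedlings also carry large families of secreted defence peptides and of enzymes of secondary metabolism, whose members often lie side by side on a chromosome.

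The annotation used here paired 7 of the 23 probe sets with a single gene, 1 with several genes and 15 with none. The 7 were AT3G51450 (a strictosidine synthase-like protein), AT5G02940 (an ion channel of the plastid envelope), AT4G21870 (a small chaperone of the HSP20 type), AT1G78450 (a protein of the SOUL heme-binding family), Hop3 (AT4G12400, a co-chaperone that links HSP70 to HSP90), AT5G44680 (a protein of the DNA glycosylase superfamily) and AT2G43530 (a small cysteine-rich peptide of the defensin-like and trypsin inhibitor type). The other 16 are given by their probe set identifiers, and no gene name is given to them. Of the 23, 2 end in s_at, the suffix Affymetrix gives to probe sets that can read more than 1 transcript.

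Both chaperone-related members were higher on each ΔC26 array than on any other array. AT4G21870 had intensities of 592 and 514 in ΔC26, against 93.3 and 211 in ΔC27, 87.0 and 181 in FL3, 233 and 181 in VC, and 271 and 107 in Col-0. Its ΔC26 mean was 553 ± 55.0 (SD, n = 2), 2.56-fold over the higher control mean on the log2(intensity + 16) scale. The replicate arrays of ΔC27, FL3 and Col-0 each differed widely in this gene, so that those 3 lines and VC overlapped one another while ΔC26 stood clear of them.

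Hop3 was the dimmest named member. It had 50.6 and 49.8 in ΔC26, against 18.1 and 19.2 in ΔC27, 25.8 and 18.0 in FL3, 16.6 and 14.9 in VC, and 17.1 and 15.9 in Col-0. The ΔC26 arrays nearly coincided, and the lower of them was 1.93 times the highest array of any other line, FL3 replicate 1. Its log2 difference over the higher control was 1.03. With control intensities near 16, the added constant understates the changes of this gene, in FL3 as well as in ΔC26. The FL3 mean lay 0.23 above the control mean on the log2 scale. With a constant of 1 the ΔC26 difference was 1.55, but Hop3 no longer met the rule.

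AT3G51450 had the largest difference over the controls of the named members. Its values were 438 and 571 in ΔC26, 91.4 and 53.1 in ΔC27, 72.3 and 83.7 in FL3, 131 and 165 in VC, and 87.3 and 71.2 in Col-0. On the log2(intensity + 16) scale ΔC26 lay 3.16-fold over VC, the higher control, and VC itself lay above Col-0, ΔC27 and FL3 without overlap. The mean of ΔC27 was 0.53 and that of FL3 0.41 below the control mean on the log2 scale.

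AT5G02940 showed a close pair of ΔC26 values. It had 226 and 231 in ΔC26, against 71.3 and 49.5 in ΔC27, 67.2 and 59.0 in FL3, 76.6 and 63.4 in VC, and 51.1 and 30.7 in Col-0. The lower ΔC26 array was 2.94 times the highest other array, VC replicate 1, which was the widest such gap among the 23 members. ΔC27, FL3 and VC overlapped, and Col-0 had the lowest mean.

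AT1G78450 was the member in which FL3 departed most from the controls. It had 205 and 208 in ΔC26, 53.5 and 78.9 in ΔC27, 25.6 and 38.2 in FL3, 88.2 and 69.4 in VC, and 100.2 and 65.1 in Col-0. ΔC26 was 2.29-fold over the higher control mean on the same scale, while the FL3 mean lay 1.01 below the controls on the log2 scale and both FL3 arrays lay below every array of the other lines. ΔC27 overlapped VC and Col-0.

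In AT5G44680 and AT2G43530 the lines with truncated TaSIN lay on opposite sides of the controls. AT5G44680 had 299 and 314 in ΔC26, 37.7 and 95.2 in ΔC27, 152 and 89.0 in FL3, 177 and 121 in VC, and 190 and 94.7 in Col-0. AT2G43530 had 830 and 551 in ΔC26, 201 and 143 in ΔC27, 316 and 310 in FL3, 247 and 342 in VC, and 374 and 296 in Col-0. The ΔC27 means lay below the control mean by a log2 difference of -1.02 in AT5G44680 and -0.82 in AT2G43530, and the ΔC26 means were 4.17-fold and 3.73-fold those of ΔC27 on the log2(intensity + 16) scale. The ΔC27 arrays of AT2G43530 were both below all control arrays, whereas in AT5G44680 the higher ΔC27 array slightly exceeded the lower Col-0 array.

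**Figure D1:**
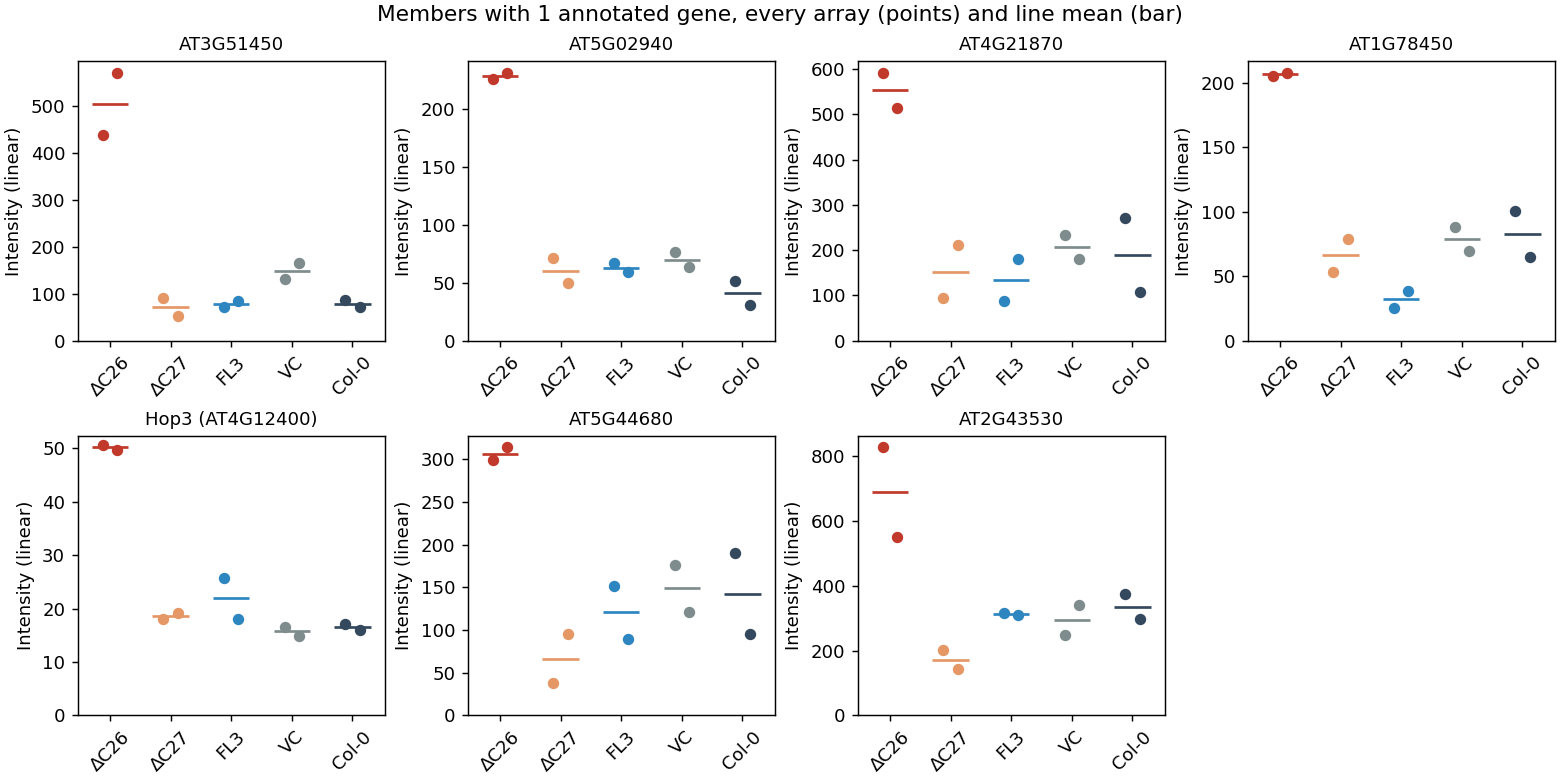
Intensity (linear axis from 0) of the 7 members with a single annotated gene in ΔC26, ΔC27, FL3, VC and Col-0. Points are single arrays and bars are line means. In every panel both ΔC26 points lie above all 8 others, by 1.47 times in AT2G43530 to 2.94 times in AT5G02940.

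The 16 members without a single annotated gene covered a wider range than the named members. Their ΔC26 means ran from 32.3 to 899 and their control means from 8.38 to 396, with folds over the higher control mean of 1.74 to 3.27 on the log2(intensity + 16) scale. The largest difference over the higher control among all 23 was that of 256245_at, with 1014 and 784 in ΔC26, 217 and 272 in ΔC27, 430 and 209 in FL3, 227 and 260.5 in VC, and 265 and 258.5 in Col-0. FL3 replicate 1 stood above every control and ΔC27 array in this probe set, though well below ΔC26.

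The probe set 255786_at showed the widest distance between the lines with truncated TaSIN. It had 291 and 255 in ΔC26, 29.8 and 21.5 in ΔC27, 40.9 and 39.7 in FL3, 72.0 and 89.6 in VC, and 48.8 and 30.2 in Col-0, a log2 difference of 2.80 between ΔC26 and ΔC27. Both ΔC27 arrays were below every array of the other lines. The dimmest member was 261542_at, with 37.4 and 27.3 in ΔC26 against 7.17 to 10.6 on the other 8 arrays, and it was the 1 member with a control mean under 16. The member 262911_s_at, annotated with several genes, had 86.3 and 89.4 in ΔC26 against 16.5 to 36.2 elsewhere. The member that stood least clear of the other lines was 266672_at, with 60.3 and 83.5 in ΔC26, 34.4 and 50.5 in ΔC27, and 25.4 to 43.5 in FL3, VC and Col-0. Its ΔC26 mean was 0.59 above that of ΔC27 on the log2 scale, the smallest such difference of the 23.

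Over the 23 members the median difference of ΔC26 over the higher control was 1.12 on the log2 scale, from 0.80 to 1.71, and 14 members were at least 2-fold. The median over all probe sets was -0.03. In 23 of 23 members both ΔC26 arrays exceeded the other 8 arrays, as did 3.68% of all probe sets. By limma, 18 of the 23 passed an adjusted p under 0.05 as higher in ΔC26 than in the controls, against 1.91% of all probe sets. The rule used this contrast, so nothing is read from either share. The ΔC26 arrays of a member differed by a median of 0.18 on the log2 scale (0.13 over all probe sets), with the widest gap, 0.75, in 266299_at. The same median gap was 0.40 in ΔC27 (0.12 over all probe sets), 0.20 in FL3 (0.09), 0.26 in VC (0.10) and 0.24 in Col-0 (0.10). Replicate 1 was the higher array in 9 of 23.

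**Figure D2:**
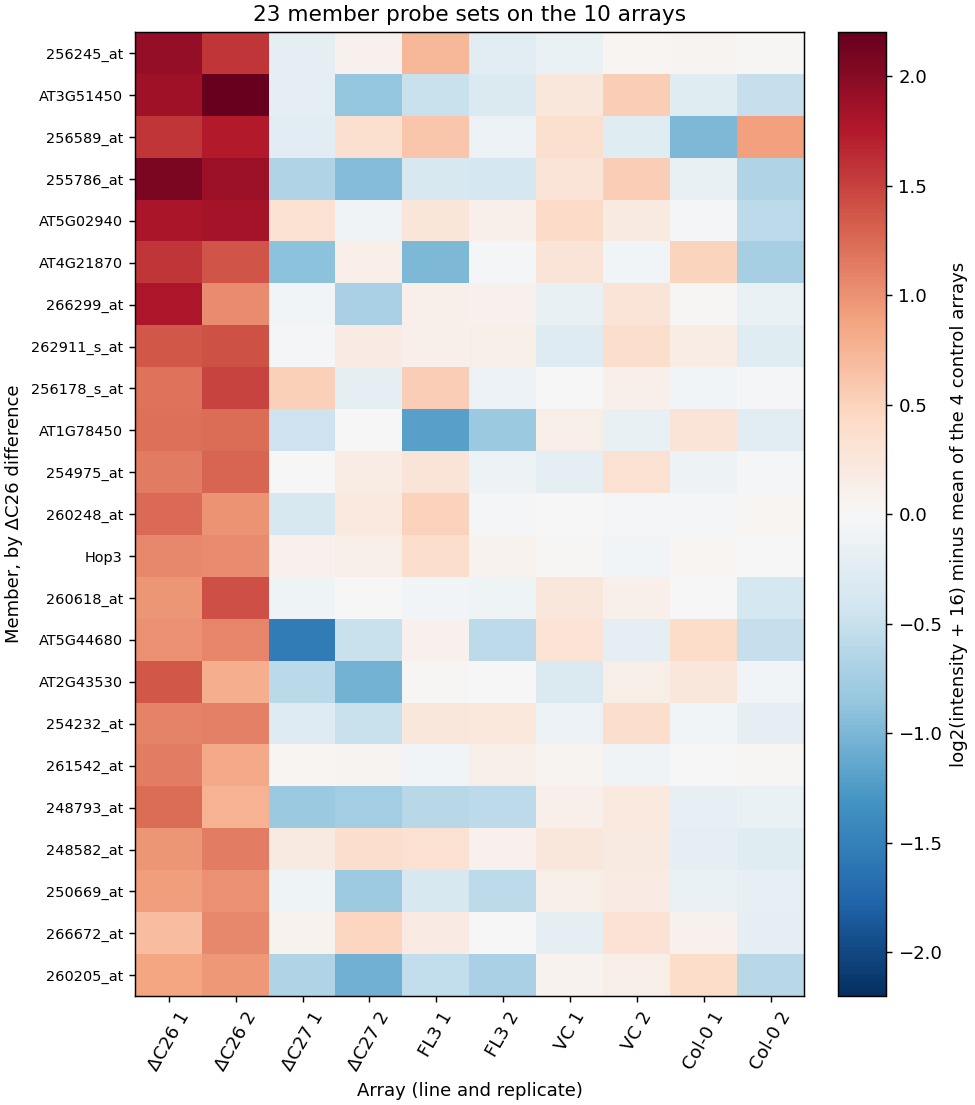
Deviation of each array from the mean of the 4 control arrays, on the log2(intensity + 16) scale, for the 23 members (rows, in order of the ΔC26 difference over the higher control) on the 10 arrays (columns, by line and replicate). Both ΔC26 columns are high in every row. The ΔC27 and FL3 columns lie on both sides of 0, and single arrays stand above the controls, such as FL3 replicate 1 in 256245_at (intensity 430).

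The rule set only an upper limit for ΔC27 and FL3, and the members differed in how far below it they lay. The ΔC27 mean was below the control mean in 14 members, by more than 0.5 in 6 of them: AT5G44680, 260205_at, AT2G43530, 255786_at, 248793_at and AT3G51450. The FL3 mean was below in 9 members and by more than 0.5 in 4: AT1G78450, 260205_at, 248793_at and AT4G21870. Only 260205_at and 248793_at passed that mark in both lines. Both ΔC27 arrays were below all 4 control arrays in 5 members, against 18.7% of all probe sets, and both FL3 arrays in 3, against 11.6% of all probe sets. The median member difference from the controls was -0.07 in ΔC27 and 0.08 in FL3, against 0.00 and -0.01 over all probe sets. The rule removed higher values in both lines, so the counts below the controls are partly set by it. Nothing is read from them.

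**Figure D3:**
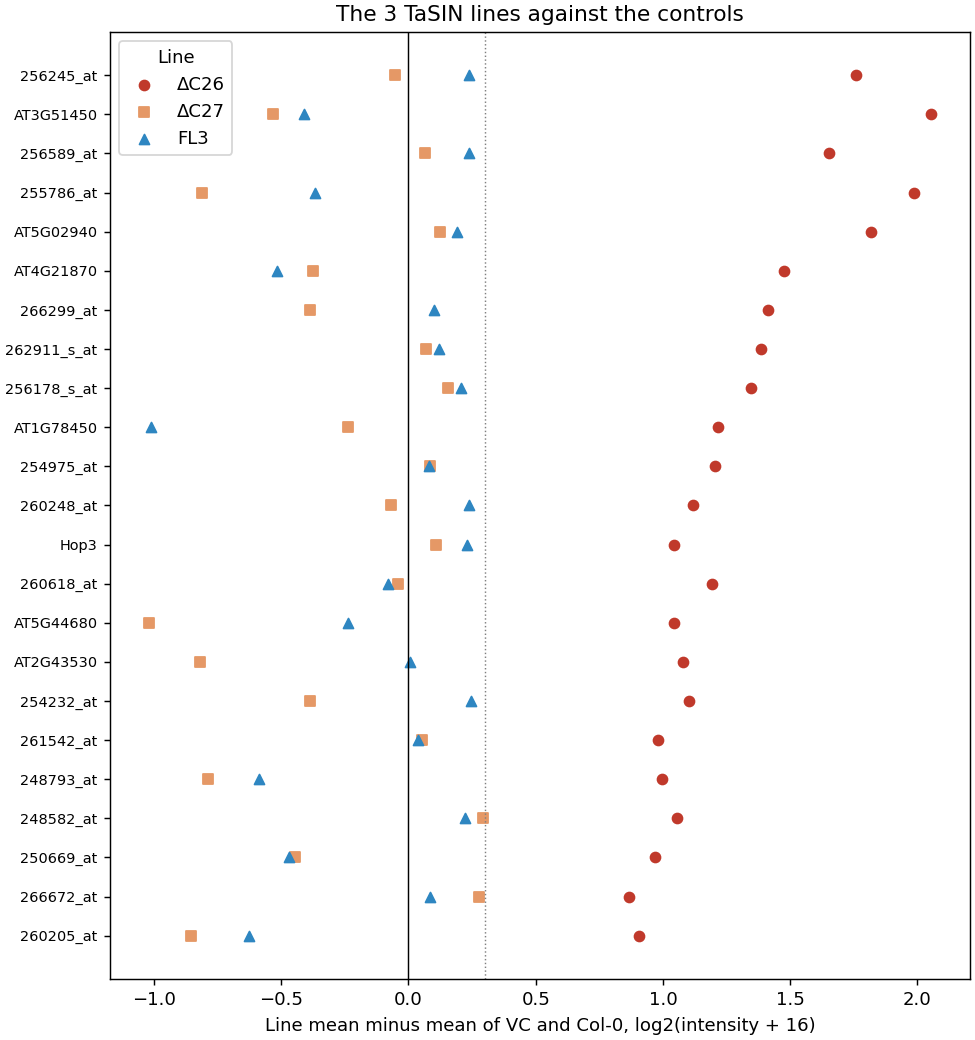
Mean of ΔC26 (circles), ΔC27 (squares) and FL3 (triangles) minus the mean of VC and Col-0, on the log2(intensity + 16) scale, for the 23 members. The dotted line marks the limit of 0.3 that the rule set for ΔC27 and FL3. ΔC26 lies between 0.87 and 2.05, ΔC27 between -1.02 and 0.29 and FL3 between -1.01 and 0.25.

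At the edges of the rule, the 3 members nearest the 0.8 threshold were 260205_at at 0.803, 266672_at at 0.811 and 250669_at at 0.812. Just outside it were AT1G54050 at 0.799, 266156_at at 0.795 and AT4G17470 at 0.790. In the limit for FL3, 254232_at at 0.247 was inside and psbN, a gene of the plastid genome, at 0.312 outside. In the limit for ΔC27, 248582_at at 0.292 was inside and 267034_at at 0.306 outside.

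The rule used the means of VC and Col-0, so their differences in the members are given without a test. VC minus Col-0 ran from -0.18 to 0.82 on the log2 scale over the 23. VC was above Col-0 in 17 of the 23, against 49.5% of all probe sets. The widest differences were 255786_at at 0.82, AT3G51450 at 0.78 and AT5G02940 at 0.62. That ΔC26 was above VC as well was required of every member by the rule.

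The same rule applied to each TaSIN line in turn, with no gene left out by name, gave 26 probe sets for ΔC26, 65 for ΔC27 and 0 for FL3. Turned to lower values, it gave 13, 99 and 2. In all, 218 probe sets had ΔC26 at least 0.8 above the higher control, and among those FL3 was within its limit in 101 and ΔC27 in 35. ΔC27 replicates correlated less closely over all probe sets (Pearson coefficient 0.971) than ΔC26 replicates (0.986) or those of FL3, VC and Col-0 (0.991 to 0.993).

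Heat shock genes outside the 23 were described from a list of 22 loci, of which 7 had a probe set with a single gene. By limma, 3 of the 7 rose in ΔC26 and 0 fell, against 1.91% of all probe sets higher in that contrast. Among the 3 was AT5G48570, which was left out of the members by name and also missed the limit for FL3. The list was chosen with earlier results of these data known, so nothing is read from this share. In ΔC27 1 of the 7 rose, against 8.2% of all probe sets, and in FL3 1 of the 7, against 2.2%. The median log2 change of the 7 was 0.53 in ΔC26, 0.04 in ΔC27 and 0.13 in FL3, against medians over all probe sets of 0.00, 0.00 and -0.01. AT5G51440, a mitochondrial small heat shock protein, was the one that rose in all 3 TaSIN lines.

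AT5G48570 encodes a heat-induced immunophilin that acts as a co-chaperone. It had 126 and 103 in ΔC26, 38.7 and 31.9 in ΔC27, 61.7 and 34.9 in FL3, 25.5 and 30.4 in VC, and 29.0 and 39.4 in Col-0. It rose by 1.47 ± 0.19 (SE) on the log2 scale in ΔC26 (limma, Benjamini-Hochberg adjusted p = 0.0063), and its difference between ΔC26 and ΔC27 was 1.35 ± 0.22 (adjusted p = 0.016), a contrast in which 2.95% of all probe sets passed. The differences from the controls of 0.13 in ΔC27 and 0.43 in FL3 did not pass. AT5G48570 was listed, and left out by name, with earlier results of these data known, so these p-values are a description only. Without ΔC26 replicate 2 its call in ΔC26 ended (adjusted p = 0.055).

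AT1G54050, a small heat shock protein of the cytosol, was the probe set nearest below the 0.8 threshold. It had 97.4 and 108 in ΔC26, 44.7 and 38.9 in ΔC27, 68.8 and 49.4 in FL3, 46.9 and 58.1 in VC, and 63.1 and 41.6 in Col-0. The rise in ΔC26 was 0.81 ± 0.18 (limma, Benjamini-Hochberg adjusted p = 0.047), and ΔC26 exceeded ΔC27 by 1.04 ± 0.21 (adjusted p = 0.031). This rise was close to the threshold: it did not pass when any 1 array was left out from ΔC26, FL3, VC or Col-0 (adjusted p ranging from 0.056 without Col-0 replicate 1 to 0.34 without ΔC26 replicate 2), and its adjusted p was 0.066 with the replicate number as a block and 0.051 with a variance prior without a trend.

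The other 4 listed heat shock genes did not pass in any TaSIN line. AT2G29500, a small heat shock protein of the cytosol, had 38.8 and 17.8 in ΔC26, 12.2 and 20.8 in ΔC27, and 37.3 and 12.6 in FL3, against 14.8 and 12.9 in VC and 10.5 and 17.1 in Col-0, so replicates of 1 line differed as much as the lines did. AT1G53540, ATHSP22.0 and AT5G37670 had line means of at most 14.9 in every line, below the constant of 16, where a change can hardly be seen.

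**Figure D4:**
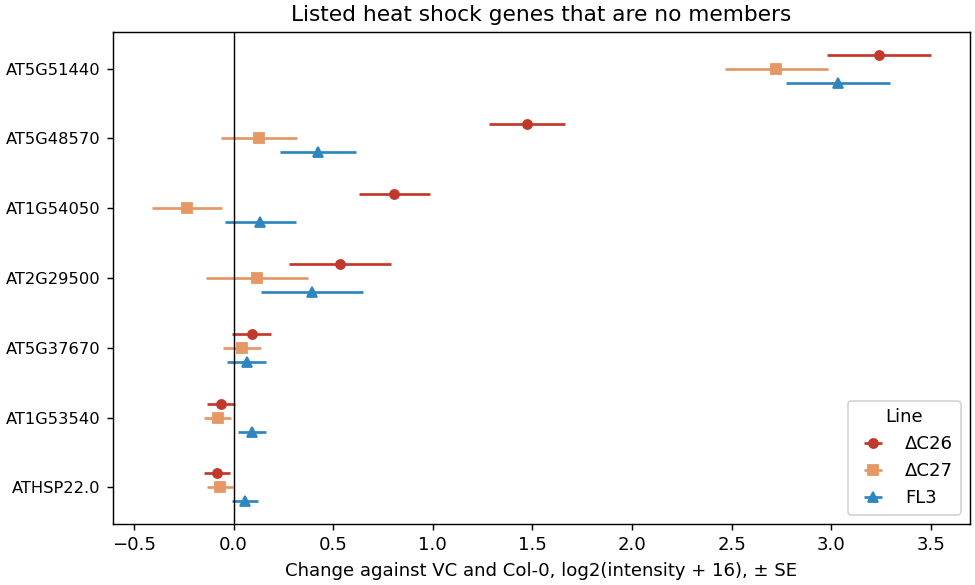
Log2 change against VC and Col-0 with its standard error for the 7 listed heat shock genes outside the 23 members, in ΔC26, ΔC27 and FL3. AT5G48570 and AT1G54050 are higher in ΔC26 than in ΔC27, AT5G51440 is high in all 3 lines, and the other 4 did not pass the test.

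By limma, 0 of 4 measured genes of the cold and dehydration list passed in ΔC26 (COR15B aside; 2 at an unadjusted p under 0.05), 0 of 3 of the oxidative stress list (MSRB6 aside; 2 unadjusted), 0 of 4 jasmonate genes (1 unadjusted) and 0 of 10 thioredoxins and glutaredoxins (3 unadjusted). The ethylene, iron deficiency, sulfur deficiency and clock lists had 1 or 2 measured genes each, of which 0 passed, adjusted or not. No gene of the salicylic acid, phosphate starvation, sugar starvation and transposon lists had a named probe set. In the whole contrast 2.71% of probe sets passed. In the peroxidase family 1 of 7 rose in ΔC26, AT5G66390 by 1.41 on the log2 scale (limma, adjusted p = 0.047), with 125 in ΔC26, 90.3 in ΔC27 and 40.1 in FL3 against 40.0 in VC and 36.3 in Col-0. The late embryogenesis abundant family had 1 of 7, LEA4-5, a protective protein of drying tissue, by 0.79 (adjusted p = 0.0038), with 32.8 in ΔC26 and 24.8 in ΔC27 against 13.4 in VC and 11.2 in Col-0. Without ΔC26 replicate 2 the calls of AT5G66390 and LEA4-5 ended (adjusted p = 0.40 and 0.058), and that of AT5G66390 also ended with the replicate block (0.071), a prior without a trend (0.082), a robust prior (0.059), a constant of 1 (0.057) and without Col-0 replicate 1 (0.082), either VC array or either FL3 array (0.064 to 0.12), and by a narrow margin without ΔC26 replicate 1. In the pectin methylesterase family 1 of 4 fell, PMEPCRF by 0.59 in ΔC26 (adjusted p = 0.036), with 116 in ΔC26, 131 in ΔC27 and 116 in FL3 against 176 in VC and 188 in Col-0. Its call ended without ΔC26 replicate 2 (adjusted p = 0.25), when any 1 array of FL3, VC or Col-0 was left out (0.072 to 0.095) and with the replicate block (0.061).

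Of 6 measured genes of the mitochondrial retrograde list, 5 rose in ΔC26 by limma, against 1.91% of all probe sets. In ΔC27 6 of 6 rose, against 8.2%, and in FL3 3 of 6, against 2.2%. This list too was chosen with earlier results of these data known, so nothing is read from these shares. AT2G21640, a marker of oxidative stress in mitochondria, averaged 1846 in ΔC26, 2428 in ΔC27 and 2059 in FL3, against 38.9 in VC and 46.5 in Col-0. AT2G04050, an efflux transporter of the MATE type, averaged 460 in ΔC26, 1108 in ΔC27 and 967 in FL3, against 16.4 in VC and 18.6 in Col-0. GSTU25, a glutathione transferase, averaged 604 in ΔC26, 485 in ΔC27 and 235 in FL3, against 58.3 in VC and 62.9 in Col-0. The call of GSTU25 in ΔC26 (adjusted p = 0.011) ended without ΔC26 replicate 2 (0.12), and in FL3 it did not pass. AT5G51440, given above, is also on this list.

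The 7 named members lay on all 5 chromosomes of the TAIR10.1 gene table, 2 each on chromosomes 4 and 5 and 1 each on chromosomes 1, 2 and 3, and no 2 of them were adjacent. The nearest measured gene on each side was taken for each, 14 genes in all and at most 6 loci away. Of these 14, 0 passed in ΔC26 against the controls (limma, adjusted p under 0.05), 2 had an unadjusted p under 0.05, and their log2 differences ran from -0.87 to 0.50.

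In 3 cases the next locus on the chromosome encodes a protein of the same family. AT3G51440, next to AT3G51450, had 35.1 and 50.8 in ΔC26, 21.5 and 19.8 in ΔC27, and 43.9, 59.4, 53.0 and 49.2 on the control arrays. AT1G78460, next to AT1G78450, had 487 and 400.2 in ΔC26, 196 and 270.3 in ΔC27, and 440.1, 558, 513 and 505 on the control arrays. AT2G43535, next to AT2G43530, had 305 and 257 in ΔC26, 262 and 236 in ΔC27, 298 and 391 in VC, and 592 and 1092 in Col-0. Both Col-0 arrays of AT2G43535 lay above both VC arrays, and the higher ΔC26 array exceeded the lower VC array. Its differences from the mean of the controls therefore draw on Col-0 more than on VC.

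None of these 3 neighbours passed in ΔC26, where their log2 differences were -0.20 ± 0.15 for AT3G51440, -0.18 ± 0.16 for AT1G78460 and -0.87 ± 0.23 for AT2G43535 (limma, adjusted p = 0.55, 0.61 and 0.083). All 3 fell in ΔC27, by 0.87, 1.07 and 1.03 on the log2 scale (limma, adjusted p = 0.0049, 0.0023 and 0.015). Of the 14 neighbours 4 fell and 2 rose in ΔC27, where 16.7% of all probe sets passed, with 8.49% lower and 8.2% higher. In FL3 the log2 differences were -0.44 for AT3G51440, -0.45 for AT1G78460 and -0.27 for AT2G43535, and none passed. The members AT3G51450, AT1G78450 and AT2G43530 were above the controls in ΔC26 because the rule required it. The adjacent relative of each had a ΔC26 mean below its control mean, by a difference that did not pass.

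Over the 10 arrays, the members correlated with their own mean profile at Pearson coefficients of 0.727 (256589_at) to 0.972 (255786_at). Among probe sets with a single gene outside the 23, the most similar was MSRB6, a methionine sulfoxide reductase left out by name, at 0.967. MSRB6 met the thresholds of the rule, so a high coefficient was largely set in advance and nothing is read from it. It had 287 and 198 in ΔC26, 16.4 and 11.8 in ΔC27, 29.3 and 18.5 in FL3, 48.2 and 59.3 in VC, and 41.4 and 36.0 in Col-0. The next, AT5G24880 at 0.950 and AT1G43970 at 0.950, had 9.06 and 9.99 as their highest intensities, below the constant of 16. These coefficients mainly follow the 2 ΔC26 arrays against the other 8.

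Tissue markers and RNA quality were compared as far as named probe sets allowed. The summed intensity of 3 green tissue markers (LHCB4.1, RCA and PSAE-1, of 5 listed) was 15097 and 16655 in ΔC26, 10744 and 11308 in ΔC27, 13370 and 13765 in FL3, and 12755 to 15033 in the controls. ΔC26 was the highest of the lines in this sum and ΔC27 the lowest, but LHCB4.1 alone averaged 5331 in ΔC26 and 5570 in VC. The part of this in the members' values was not tested. The 2 root markers (EXPA7 and EXPA18, of 6 listed) summed to 41.7 and 88.4 in ΔC26, 40.0 and 65.9 in ΔC27, 21.5 and 35.9 in FL3 and 25.5 to 38.7 in the controls, all dim. SAG101, 1 of 4 markers of senescent leaf, was at 21.9 and 19.4 in ΔC26, 53.4 and 26.8 in ΔC27, 37.3 and 30.8 in FL3 and 21.5 to 31.3 in the controls, and no seed marker had a named probe set. The ratio of 3′ to 5′ signal of GAPDH, a sign of RNA integrity, was 1.35 and 1.17 in ΔC26 and ran from 1.09 to 1.69 over the other lines. That of actin was 12.0 and 16.8 in ΔC26, the latter the highest of the 10 arrays, and ran from 9.45 to 14.6 elsewhere. That of ubiquitin was 5.28 and 4.65 in ΔC26 and ran from 3.73 to 5.36 elsewhere. No probe set was annotated to TaSIN, so the transgene was not measured.

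Membership depended on the arrays and the scale. Under the 18 other settings tried, 3 members met the rule every time: AT3G51450, 255786_at and AT1G78450. Leaving out 1 array at a time, 8 of the 23 stayed members throughout. AT4G21870 was lost only when replicate 1 of every line was left out. Hop3 was lost in 4 settings, with a constant of 1 or 64, without FL3 replicate 2 and without replicate 2 of every line. With replicate 1 of every line left out 61 probe sets met the rule, 16 of them members, and with replicate 2 left out 22 did, 10 of them members, which is 69.6% and 43.5% of the 23. The 16 were 26.2% of the 61 and the 10 were 45.5% of the 22.

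**Figure D5:**
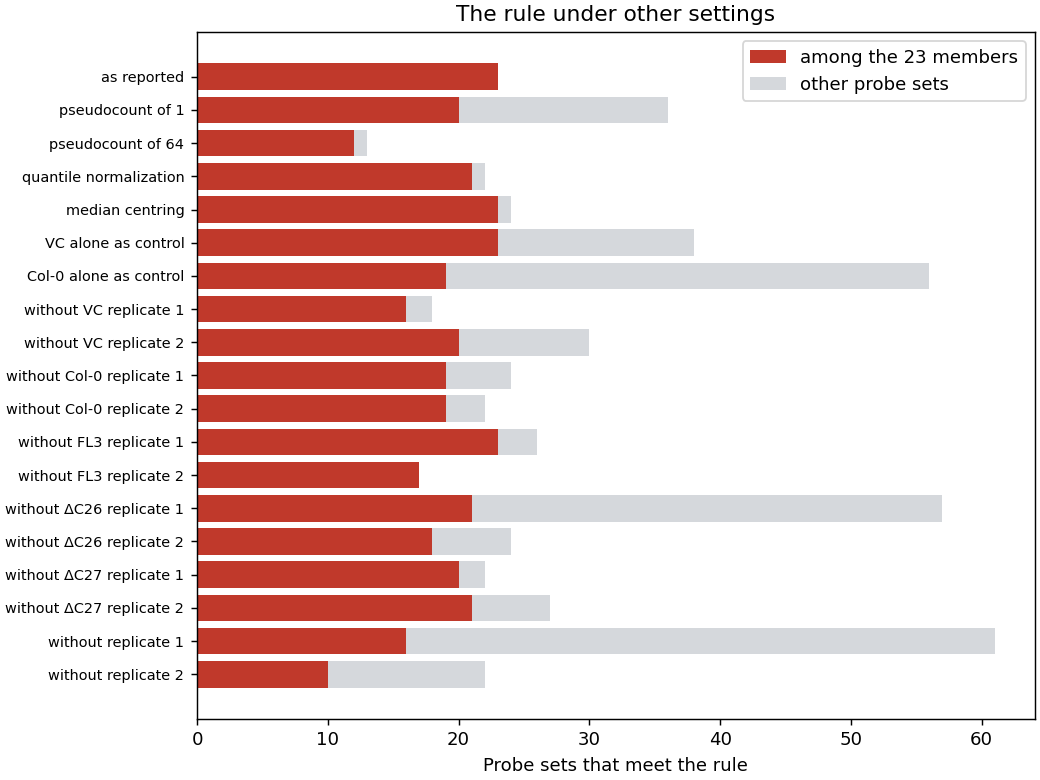
Number of probe sets that met the rule as reported and under 18 other settings, split into those among the 23 members (red) and others (grey). The total ran from 13 with a constant of 64 to 61 without replicate 1 of every line, and the members among them from 10 to 23.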

How the data were processed

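The deposited table holds 1 intensity per probe set and array, made by the authors; how they summarised, scaled and background-corrected it is not given in the sources used here. The unit was judged from the values, which were linear and ran from 3.68 to 12648, with array medians of 41.7 to 44.2. Scale was therefore linear, while centring and any background step stay unknown, and the number of arrays limits the precision. Columns were mapped to lines by sample label. No test included the 64 AFFX controls.

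Values were transformed as log2(intensity + 16); 34.8% lay below 16. limma 3.58.1 (R 4.3.3) fitted 1 mean per line over all 10 arrays with an intensity trend, 5 residual degrees of freedom, and two-sided p-values adjusted by Benjamini-Hochberg within each contrast (22746 probe sets). It was tested on simulated data. Names come from the platform annotation (1 gene for 13513 probe sets, several for 503, none for 8730), matched to TAIR10.1 for 13436. Where a gene had several probe sets, the one with the highest mean stood for it. No gene or promoter sequences were used here.

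Members and lists were chosen with earlier results of these data known. All members with 1 gene are named, and from each list the 4 largest changes at most among non-members that passed in ΔC26. The 4 heat shock genes that did not pass are named outside that rule, to complete the list, as are genes whose difference between ΔC26 and ΔC27 passed. Listed genes left out by name that met the thresholds were not tested. Replicate numbers did not pair the arrays: of 10 correlations of replicate differences between lines, 0 were over 0.1 (from -0.20 to 0.09). Alternatives covered the constant, normalization, control line, dim probe sets, variance prior, a replicate block and arrays left out.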

Additional observations from a re-analysis of the deposited data

Results flagged for a closer look

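In 8 listed genes outside the members, ΔC26 and ΔC27 differed by the test of the difference itself. The test was limma, with a Benjamini-Hochberg adjusted p under 0.05 over all probe sets, of which 2.95% passed. COR15B and MSRB6 were set aside because they met the thresholds of the rule. The lists were chosen with earlier results of these data known, so nothing is read from the count of 8. In 3 of the 8 genes ΔC26 also passed against the controls. AT2G04050 was lower in ΔC26 than in ΔC27, with a log2 difference of -1.26 and mean intensities of 460 against 1108. AT5G48570 was higher in ΔC26 by 1.35 and AT1G54050 by 1.04.

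The other 5 did not pass in ΔC26 against the controls and were higher in ΔC26 than in ΔC27. All 5 fell in ΔC27 against the controls (limma, adjusted p under 0.05). PDF1.2b, a defensin, had the widest difference, 2.86, with 374 and 333 in ΔC26 and 23.8 and 49.2 in ΔC27. PDF1.4 differed by 1.07, COR15A, a cold-induced protein of the plastid, by 0.84, and the thioredoxins TRXF2 by 0.93 and ATHM2 by 0.69. The ΔC27 log2 differences from the controls were -3.34 in PDF1.2b, -1.76 in PDF1.4, -1.30 in COR15A, -0.83 in TRXF2 and -0.54 in ATHM2. Those of ΔC26 were -0.49, -0.69, -0.46, 0.10 and 0.15 in the same order.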

How the results depend on the processing

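The count of 23 members was 36 and 13 with constants of 1 and 64, 38 against VC alone, 56 against Col-0 alone, and 17 (without FL3 replicate 2) to 57 (without ΔC26 replicate 1) without single arrays. It was 61 without replicate 1 of every line and 22 without replicate 2. The members' median ΔC26 difference of 1.12 was 1.36 and 0.81 with constants of 1 and 64, 1.28 against Col-0 alone, 0.94 without replicate 1 of every line and 1.001 to 1.15 without single arrays. Probe sets called in ΔC26 against controls numbered 617, but 377 with the replicate block and 1005 with both ΔC27 arrays left out (an alternative chosen after seeing the data). Without single arrays they numbered 71 (without ΔC26 replicate 2) to 1727 (without ΔC26 replicate 1). Those called in VC against Col-0 numbered 6, but 2 with the block, 0 without a trend or without dim probe sets, 13 with a robust prior, 43 with both ΔC27 arrays left out and 2 to 48 without single arrays. The causes were not tested.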
